A study of Mus musculus with 6 samples.

Results

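Killer lectin-like receptors are C-type lectin-like surface proteins that natural killer (NK) cells and some effector T cells use to sense other cells. Some hold inhibitory motifs in their tails and dampen activation through phosphatases, while others pair with signalling adaptors and activate the cell. In T cells they are known mostly from antigen-experienced cells, and KLRG1 in particular is used as a marker of terminally differentiated effector cells and of effector regulatory T cells. This account follows 8 genes of the family, Klrd1, Klrc1, Klrc2, Klrk1, Klre1, Klrg1, Klrb1c and Klrb1f, chosen by name. Each had 1 probe set with a single gene symbol, and all 8 were measured, of 23 genes of the family and 22180 genes in all. No filter on low signal was applied.

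CD4+ T cells came from lungs of wild-type mice that had been sensitised and challenged with house dust mite (HDM), an allergen source, or with PBS, the saline control. Lung was digested with enzymes, and CD45+ CD4+ cells that stained for neither CD11b nor F4/80, both surface proteins of myeloid cells, were sorted. RNA was hybridised to Affymetrix Mouse Gene 2.0 ST arrays, 3 per group, numbered 1 to 3 and called biological replicates. The strain, age, dose, schedule and number of mice per array are not stated in the sources used here. The p-values therefore rest on the spread among these arrays alone. Signals are on the log2 scale, on which a difference of 1 is a doubling. The CD4 T cell markers fitted the sort in level: Cd4 lay between 12.47 and 12.73 on all 6 arrays and Cd3e between 12.72 and 13.09. Of 8 such markers, 0 passed limma between groups (3 at an unadjusted p below 0.05). Cd40lg varied more, from 9.31 to 11.10. For Cd40lg, Cd3g and Cd5 all HDM values lay above all PBS values, as for 10.8% of all genes. The summed log2 signal of the 8 was 93.53 to 94.94 in PBS and 95.90 to 96.66 in HDM, so these sums did not overlap. Of all 22180 genes, at least 3906 had an unadjusted limma p below 0.05. Array medians lay between 6.57 and 6.64. With 3 arrays a group, precision is limited throughout.

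All 8 genes lie on mouse chromosome 6. Klrg1 stands apart from the rest, between Mug2 and M6pr, and the other members lie in the NK gene complex. There Klrd1 is flanked by Klre1 and Klrk1, Klrc1 by Klrc2 and Klri1, Klrb1c by Klrb1 and Klrb1b, and Klrb1f by Clec2f and Clec2e. Sequence upstream of 3 members is shown because their calls differed: Klrb1f was raised, and Klrb1c and Klrk1 did not pass the test. Whether their changes differ from each other was not tested. The bases lie before the annotated gene span in the RefSeq windows of GRCm38.p6, read 5′ to 3′ on the gene's own strand. Capitals mark GGTGTG, the core bound by T-box factors, or TGTGGT, a core bound by RUNX factors, on either strand.
Klrb1f (chr6:129045651-129045836, plus strand): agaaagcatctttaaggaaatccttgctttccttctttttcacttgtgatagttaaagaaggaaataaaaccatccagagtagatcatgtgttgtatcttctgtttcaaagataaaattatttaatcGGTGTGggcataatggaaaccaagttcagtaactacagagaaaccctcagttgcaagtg
Klrb1c (chr6:128788642-128788891, minus strand): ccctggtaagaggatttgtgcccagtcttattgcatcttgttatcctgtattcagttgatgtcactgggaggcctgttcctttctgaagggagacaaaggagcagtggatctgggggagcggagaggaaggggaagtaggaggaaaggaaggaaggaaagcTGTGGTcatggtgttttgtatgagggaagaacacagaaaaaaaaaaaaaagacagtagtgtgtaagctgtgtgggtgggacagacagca
Klrk1 (chr6:129623904-129624114, minus strand): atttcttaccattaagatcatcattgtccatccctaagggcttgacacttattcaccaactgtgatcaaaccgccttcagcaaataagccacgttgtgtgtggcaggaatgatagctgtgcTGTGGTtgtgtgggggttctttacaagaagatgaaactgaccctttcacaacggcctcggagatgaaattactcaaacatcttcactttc
The capitals fall at a T-box core upstream of Klrb1f and at a RUNX core upstream of Klrb1c and Klrk1. The table held windows of 300 bases around the start for 6 of the 8 members. In these the T-box core occurred 2 times for Klrb1f and 0 times for Klrb1c, Klrk1, Klrc1, Klrc2 and Klre1. The RUNX core occurred 1 time for Klrb1c, Klrk1 and Klrc1, 2 times in each window of Klrc2, in 1 window of Klre1 and 0 times for Klrb1f. Of 32851 windows of this length in the table, 19% held the T-box core and 16.8% the RUNX core, and the cores can overlap by sharing TGTG or GGT. A match of this kind is a description of letters only.

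The comparison asked which of these receptors differed in lung CD4 T cells between HDM and PBS. Klrg1 and Klrb1f rose, Klrd1 fell, and Klrc1, Klrc2, Klrk1, Klre1 and Klrb1c did not pass (limma, Benjamini-Hochberg over all 22180 genes, adjusted p below 0.05). By this rule 3.95% of all genes were called, 2.39% as higher and 1.56% as lower. The median log2 fold change of the 8 members was −0.13, beside −0.01 over all genes, so the members did not shift one way together. Groups did not overlap for those 3 members; over all genes HDM lay wholly above PBS in 10.8% and wholly below in 11.8%, together 22.6%. With the replicate number as a block, 12% of all genes were called. In bulk cells, fewer cells of a type and less RNA per cell cannot be told apart. The plot of the members by array shows each value.

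**Figure D1:**
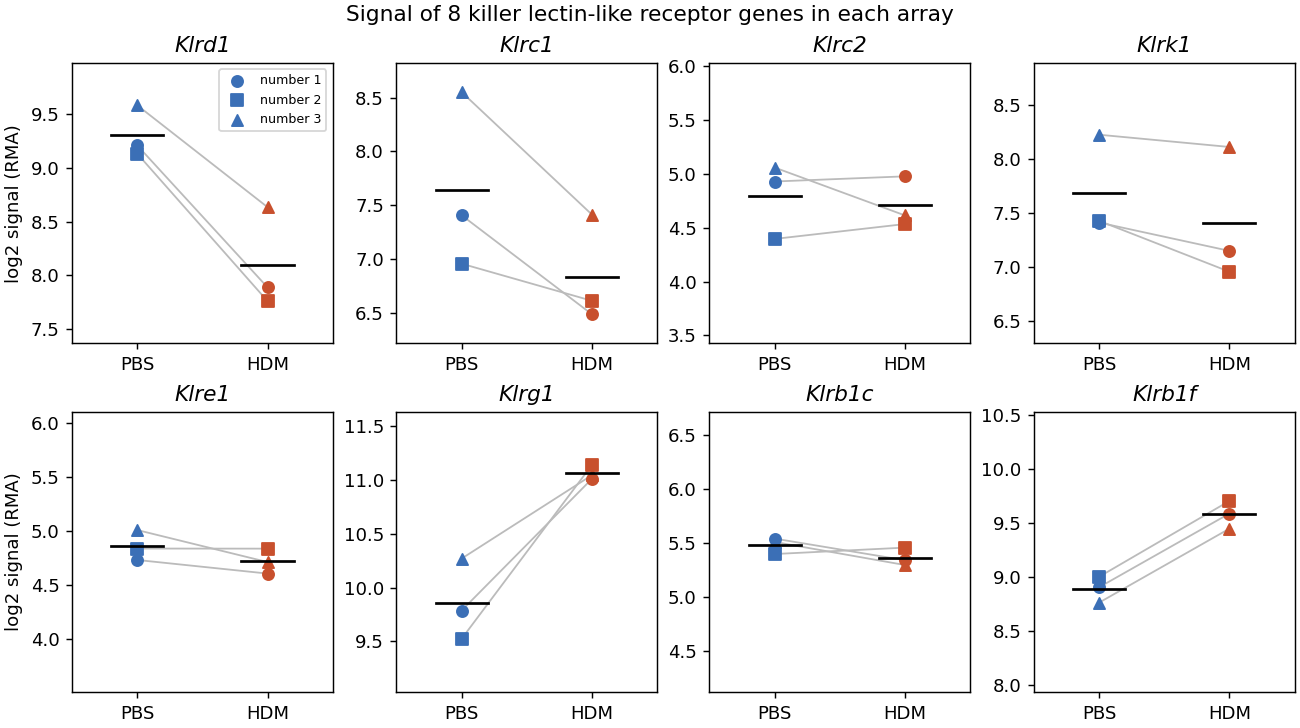
Log2 signal (RMA) of the 8 members in each array, PBS on the left and HDM on the right of each panel; each panel spans the same range, marker shapes give the replicate number, grey lines join arrays of the same number and black bars are group means (n = 3). Klrd1 is lower and Klrg1 and Klrb1f are higher in all 3 HDM arrays than in any PBS array, while the groups overlap in the other 5 panels.

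Klrd1 encodes CD94, the partner chain that NKG2A and NKG2C need to reach the cell surface. Its signal was 9.21, 9.13 and 9.58 in PBS replicates 1, 2 and 3 and 7.89, 7.76 and 8.63 in the HDM replicates. The highest HDM value lay below the lowest PBS value. The difference was −1.21 ± 0.23 (log2, SE, n = 3 per group, limma adjusted p = 0.0317), so PBS was 2.31-fold higher, with a 95% interval of −1.75 to −0.67. Between arrays of the same number it was −1.32, −1.37 and −0.95. Leaving out PBS replicate 1, 2 or 3 or HDM replicate 1 or 2 ended the call, with differences from −1.30 to −1.04 and adjusted p of up to 0.128. The call also ended with adjustment over all probe sets (adjusted p = 0.0552).

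Klrc1 encodes NKG2A, the inhibitory chain that joins CD94. Its values were spread widely, at 7.41, 6.96 and 8.55 in PBS and 6.49, 6.61 and 7.41 in HDM. The groups overlapped, with PBS replicate 2 below HDM replicate 3. The difference of −0.80 ± 0.40 did not pass (limma adjusted p = 0.363; 95% interval −1.73 to 0.13). In arrays of the same number, HDM was lower by 0.92, 0.34 and 1.14 in turn (differences of −0.92, −0.34 and −1.14). With the replicate number as a block Klrc1 fell (−0.80 ± 0.15, limma adjusted p = 0.0167), as it did without both arrays numbered 3 (−0.63 ± 0.16, adjusted p = 0.0426), a setting added after seeing the data.

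Klrc2, which encodes the activating chain NKG2C, had a dim signal, at percentile 11.0 of mean signal over all genes. It read 4.93, 4.40 and 5.06 in PBS and 4.98, 4.53 and 4.61 in HDM, with no order between groups (−0.09 ± 0.19, limma adjusted p = 0.874; 95% interval −0.52 to 0.35). Klrc1, Klrc2 and Klrc3 are close copies, and the sources used here do not give how far their probes share targets, so the division of signal among them is uncertain. Klrc3, the gene of NKG2E, lay still lower, between 3.21 and 4.07 on the 6 arrays.

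Klrk1 encodes NKG2D, an activating receptor for stress-induced ligands. Its signal was 7.41, 7.43 and 8.23 in PBS and 7.15, 6.95 and 8.11 in HDM. The array numbered 3 was the highest of its group on both sides, by 0.81 over the mean of the other 2 in PBS and by 1.06 in HDM, more than the groups differed. The difference of −0.28 ± 0.33 did not pass (limma adjusted p = 0.739; 95% interval −1.04 to 0.48). It was −0.26, −0.47 and −0.11 in pairs of the same number and did not pass with the replicate block either (adjusted p = 0.117).

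Klre1 encodes a receptor chain of NK cells that pairs with the products of Klri1 and Klri2. It was dim, between 4.73 and 5.01 in PBS and between 4.60 and 4.83 in HDM, and did not pass (−0.14 ± 0.10, limma adjusted p = 0.546; 95% interval −0.38 to 0.09). Its partners did not pass either: Klri1 differed by 0.12 ± 0.13 and Klri2 by −0.34 ± 0.38. No detection call was available, so a dim signal gives no proof of expression.

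Klrg1 encodes an inhibitory receptor that binds cadherins. PBS replicates 1, 2 and 3 read 9.79, 9.52 and 10.27, and the HDM replicates read 11.01, 11.14 and 11.04. All HDM values lay above all PBS values, and the HDM values lay closer together (SD 0.067) than the PBS values (SD 0.38). Klrg1 was 2.30-fold higher in HDM (1.20 ± 0.17, limma adjusted p = 0.0109; 95% interval 0.81 to 1.60). Paired by number the differences were 1.22, 1.61 and 0.77. The call was lost without PBS replicate 1 (adjusted p = 0.053), HDM replicate 1 (0.0527) or HDM replicate 2 (0.0602), where the difference stayed at 1.17, 1.23 and 1.17.

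Klrb1f encodes NKR-P1F, a receptor of the NKR-P1 group for C-type lectin-like ligands. It read 8.90, 9.0 and 8.76 in PBS and 9.59, 9.70 and 9.45 in HDM, so the groups did not overlap. HDM was 1.61-fold higher (0.69 ± 0.11, limma adjusted p = 0.0147; 95% interval 0.44 to 0.94). Differences in pairs of the same number were 0.68, 0.70 and 0.69. Without 1 array the difference ranged from 0.63 to 0.76, and the call was lost without PBS replicate 1 (adjusted p = 0.0631), PBS replicate 2 (0.0549), HDM replicate 1 (0.0715) or HDM replicate 2 (0.0762).

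Klrb1c encodes NK1.1, the activating receptor used to identify NK cells in some mouse strains. Its signal was dim, at 5.54, 5.40 and 5.51 in PBS and 5.34, 5.46 and 5.30 in HDM. The groups overlapped (−0.12 ± 0.09, limma adjusted p = 0.553), and the 95% interval, −0.32 to 0.08, did not reach the change of Klrb1f. A further probe set that names both Klrb1a and Klrb1c, and therefore entered no comparison, read between 3.88 and 4.24 on the 6 arrays.

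Outside the 8 members, 14 genes from a list of the family's other members were measured, and 0 passed with limma, with a median of −0.05. Klra6, an inhibitory Ly49 receptor, was the one of these at an unadjusted p below 0.05, and its 95% interval lay below 0 (−0.28 ± 0.09, adjusted p = 0.148). Its signal was dim, at percentile 5.1 of mean signal, and gives no proof of expression. With the replicate block 0 passed as well. The 2 with the largest differences were Klri2 and Klrb1b, an inhibitory NKR-P1 receptor (−0.30 ± 0.28, adjusted p = 0.66). Of the 14, 8 lay below the 25th percentile of mean signal, and several Ly49 genes share probe sets and were not analysed here. The plot of changes sets the members among the family.

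**Figure D2:**
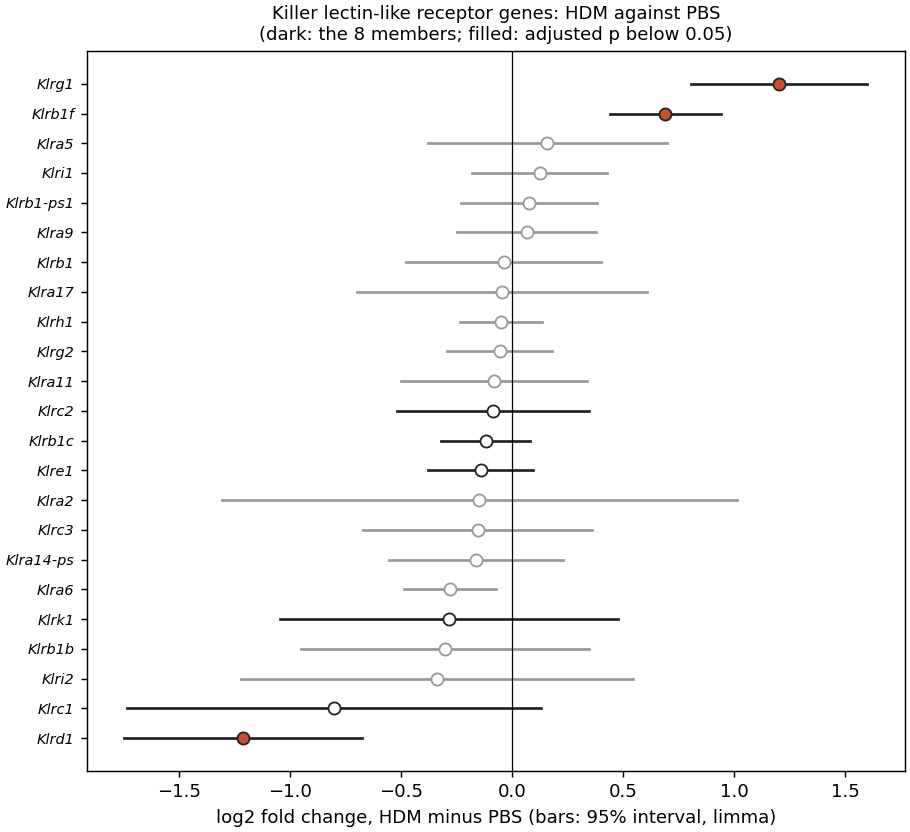
Log2 fold change, HDM minus PBS, of the 23 measured genes whose symbols begin with Klr and a letter, with 95% intervals from limma (n = 3 arrays per group); dark lines are the 8 members, grey lines the rest, and filled points have an adjusted p below 0.05. Klrg1 (1.20) and Klrb1f (0.69) lie to the right, Klrd1 (−1.21) to the left, and the intervals of the other members cross 0.

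The ligands of these receptors were read in the same sorted cells. Of 10 measured ligand genes, 1 rose, 1 fell and 8 did not pass, with a median of 0.06. With the block 2 rose and 1 fell, where 12% of all genes were called. Cdh1, which encodes E-cadherin, a ligand of KLRG1, read 7.42, 7.80 and 7.66 in PBS and 8.70, 8.42 and 8.21 in HDM. It rose by 0.82 ± 0.15 (limma adjusted p = 0.0292), but not with adjustment over all probe sets (adjusted p = 0.0512) or with its 2 probe sets averaged (0.45, adjusted p = 0.0742). The call of Cdh1 also went without PBS replicate 1, PBS replicate 2, PBS replicate 3, HDM replicate 1 or HDM replicate 2, with adjusted p of up to 0.113.

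Clec2i, which encodes Clr-g, a ligand of NKR-P1F, went the other way from Klrb1f. It read 9.56, 9.48 and 9.29 in PBS and 8.96, 8.90 and 8.89 in HDM and fell by 0.53 (SE 0.10, limma adjusted p = 0.0289). Left-out arrays moved its difference between −0.60 and −0.47, with adjusted p of up to 0.142. H2-T23, the gene of Qa-1, the ligand of CD94 with NKG2A or NKG2C, did not pass (0.04 ± 0.09, adjusted p = 0.883), and lay between 10.02 and 10.23 on all arrays. Among the NKG2D ligands measured, Ulbp1, H60b and H60c, 0 passed, 0 had groups that did not overlap, and several Raet1 genes were not analysed here.

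Genes of C-type lectins that neighbour the family gave 1 higher and 1 lower of 14. Clec2i was the lowered one, and Clec7a, the beta-glucan receptor dectin-1 of myeloid cells, was raised (1.25 ± 0.18, limma adjusted p = 0.0112). Clec7a lost the call without PBS replicate 2 or HDM replicate 1, with adjusted p of up to 0.07. With the replicate block 3 were higher and 1 lower, where 12% of all genes were called. The list's median was 0.06.

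Signalling partners were read next. Of 21 measured adaptors, kinases and phosphatases, 3 rose and 0 fell, with a median of 0.16 beside −0.01 for all genes. Inpp5d, the lipid phosphatase SHIP-1 that inhibitory receptors recruit, rose by 0.45 ± 0.08 (limma adjusted p = 0.022). Zap70, a proximal kinase of T cells, rose by 0.48 ± 0.10 (adjusted p = 0.045), and Vav2, a guanine nucleotide exchange factor, by 0.44 ± 0.09 (adjusted p = 0.0349). With the block 4 of the list rose, where 12% of all genes were called. With each array centred on its median, 1 passed, and 0 of the list passed without PBS replicate 1, PBS replicate 2, HDM replicate 1 or HDM replicate 2. Hcst, the adaptor DAP10 of NKG2D, did not pass (0.11 ± 0.11, adjusted p = 0.706), nor did Tyrobp, the adaptor DAP12 of activating receptors (0.34 ± 0.33, adjusted p = 0.682).

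Transcription factors linked to expression of these receptors or to effector and NK differentiation gave 2 higher and 2 lower of 14, with a median of 0.18. Gata3, the factor of type 2 helper cells, rose by 1.02 ± 0.13 (limma adjusted p = 0.00722) and by 0.67 with its 2 probe sets averaged, and Ikzf2, the Helios factor of many regulatory T cells, by 0.76 ± 0.14 (adjusted p = 0.0284). Bach2, a repressor of effector fate, fell by 0.97 (SE 0.11, adjusted p = 0.00474), and Zbtb16, which encodes PLZF of innate-like T cells, fell by 0.72 (SE 0.12, adjusted p = 0.0167). With the block 5 were higher and 3 lower, where 12% of all genes were called. The count was 2 without PBS replicate 1, HDM replicate 1 or HDM replicate 2: Zbtb16 lost its call in each of these (adjusted p of up to 0.0826), and so did Ikzf2, which also lost it without PBS replicate 2 or 3 (up to 0.101). Gata3 and Bach2 passed without any 1 array. Eomes, a T-box factor of NK and memory cells, did not pass (−0.02 ± 0.12, adjusted p = 0.954).

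**Figure D3:**
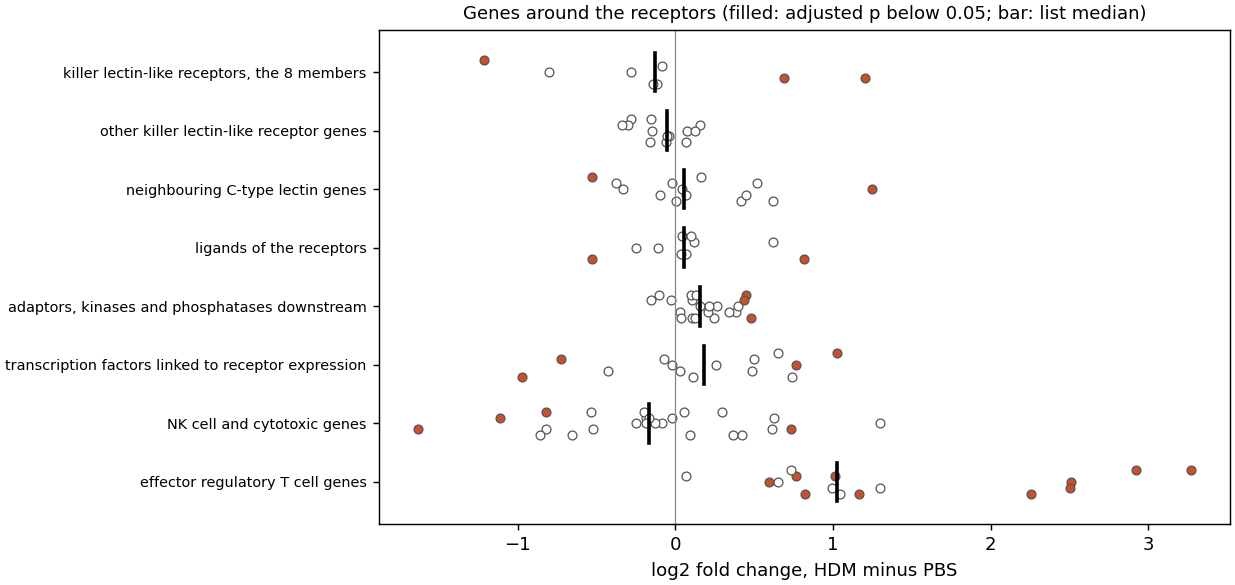
Log2 fold change, HDM minus PBS, of the measured genes of each list, 1 point per gene, with vertical jitter that carries no meaning; filled points have a limma adjusted p below 0.05 and black bars are list medians. Called genes lie on both sides of 0 for the members and for the neighbouring lectin, ligand, transcription factor and NK lists. Those of the signalling list (median 0.16) and the effector regulatory T cell list (median 1.03) lie to the right only.

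Genes of NK and cytotoxic cells were read beside the receptors. Of 25 measured, 3 fell, 1 rose and 21 did not pass, with a median of −0.17. Gzma, which encodes granzyme A, fell by 1.63 (SE 0.19, limma adjusted p = 0.00524), Txk, a Tec family kinase, by 1.11 (SE 0.21, adjusted p = 0.0311) and Prf1, perforin, by 0.82 (SE 0.16, adjusted p = 0.0308), and Ctsw, the cathepsin W gene, rose by 0.73 ± 0.10 (adjusted p = 0.00929). With the replicate block 8 fell and 5 rose, where 2653 of all 22180 genes were called. Without both arrays numbered 3, added after seeing the data, 7 fell and 5 rose, where 2576 of all genes were called. The number called was 8 without HDM replicate 3, where 1567 of all genes were called. It was 1 or 2 without PBS replicate 1, 2 or 3 or HDM replicate 1 or 2, where 218 to 757 of all genes were called. In each of those 5 cases Txk and Prf1 no longer passed, their highest adjusted p being 0.128 and 0.133. Leaving out replicate 2 of either group ended the call of Ctsw, where 0.0597 was the highest adjusted p.

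Of 10 measured NK cell markers, of which Klrb1c and Klre1 are members, 0 passed with limma and 2 had an unadjusted p below 0.05. Over all 22180 genes, at least 3906 had an unadjusted limma p below 0.05. The summed log2 signal of all 10 ran from 72.02 to 75.17 over the PBS arrays and from 71.55 to 76.45 over the HDM arrays. That sum includes Tyrobp and Fcer1g, which myeloid cells share. Ncr1, the receptor NKp46 that defines NK cells, read 6.62, 6.42 and 7.07 in PBS and 6.25, 6.0 and 7.49 in HDM (−0.13 ± 0.36, adjusted p = 0.909). The part of NK cells in the fall of Klrd1 was not tested.

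Markers of invariant NKT cells, which can express CD4, gave 2 lower and 1 higher of 5: Zbtb16, and, named after their values were seen, Slamf6 (−0.42 ± 0.09, limma adjusted p = 0.0398) and Slamf1 (0.39 ± 0.08, adjusted p = 0.0398), both receptors of the SLAM family. Their summed log2 signal was 41.50 to 41.99 in PBS and 40.43 to 41.20 in HDM. Their part in any change of the receptors was not tested.

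Beside Klrg1, genes of effector regulatory T cells moved: 10 of 16 measured rose and 6 did not pass, where 2.39% of all genes rose. Their median was 1.03. With the replicate number as a block, which called 12% of all genes, 15 of the 16 rose. They were led by Il10, an anti-inflammatory cytokine (3.27 ± 0.15, limma adjusted p = 0.000178), Fgl2, a suppressor molecule (2.92 ± 0.17, adjusted p = 0.00047), Cxcr6, a chemokine receptor (2.51 ± 0.15, adjusted p = 0.00047), and Itgae, the CD103 chain (2.50 ± 0.26, adjusted p = 0.00381). Foxp3 rose by 0.83 ± 0.11 (limma adjusted p = 0.00851). Ctla4 (0.99 ± 0.26, adjusted p = 0.0895) and Tnfrsf18 (0.07 ± 0.14, adjusted p = 0.863) did not pass. Foxp3, Ctla4 and Tnfrsf18 were named after their values were seen. The list was chosen with earlier results of these data known, so its direction is no independent evidence.

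Group 2 innate lymphoid cells also express KLRG1. Of their 7 measured markers 4 rose, Klrg1 itself, Gata3, Il17rb and Il9r. Il17rb, a receptor chain for interleukin 25, rose by 2.20 ± 0.43 (limma adjusted p = 0.0335). Il9r, the interleukin 9 receptor, rose by 1.43 ± 0.24 (adjusted p = 0.0208). The other 3 did not pass: Arg1 (1.56 ± 0.51), Rora (0.41 ± 0.16) and Il7r (−0.22 ± 0.06). For Il7r all HDM values lay below all PBS values. Apart from Klrg1 and Gata3, these were named after their values were seen. The summed signal of the 7, Klrg1 included, was 64.02 to 64.64 in PBS and 68.63 to 73.82 in HDM. HDM replicate 3 was the lowest of the HDM arrays. The sort as described selected CD4+ cells and names no stain for the T cell receptor. Macrophage and monocyte markers ran from percentile 36.4 (Marco) to 96.7 (Lyz2) of mean signal, and Cd8a lay at 53.6 and Cd8b1 at 82.4. None of these is in the list of group 2 innate lymphoid cell markers. Whether group 2 innate lymphoid cells entered the sort was not tested. Il1rl1 and Areg were not analysed here. The part of either cell type in the rise of Klrg1 was not tested.

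Arrays numbered 3 stood apart for part of the family. Klrd1, Klrc1 and Klrk1 were each highest in the array numbered 3 within both groups, 3 of the 8 members, as were 9 of the 23 genes of the family (39.1%) and 19.1% of all genes. Klrc1 exceeded the mean of the other 2 arrays by 1.37 in PBS and 0.86 in HDM, and Klrd1 by 0.41 and 0.81. Klrb1f was the lowest in the arrays numbered 3 of both groups, by 0.19 and 0.20 below the mean of the others.

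The same order held for 14 of 25 NK and cytotoxic genes, among them Ncr1 (0.55 in PBS and 1.36 in HDM over the mean of the others) and Nkg7, a granule protein (0.80 and 0.60). It held for 6 of 10 macrophage and monocyte markers, 5 of 5 B cell markers and 1 of 8 CD4 T cell markers. Tyrobp and Fcer1g, adaptors shared by NK and myeloid cells, exceeded the mean of the others by 0.81 and 1.03 in PBS and by 1.07 and 1.35 in HDM. The summed log2 signal of the macrophage markers was 78.66 to 80.05 in PBS and 80.84 to 84.47 in HDM, and 1 of 10 passed, Chil3 (2.11 ± 0.38, limma adjusted p = 0.0248), named after its value was seen. Without Chil3, a sum added after seeing the data, the range was 69.03 to 71.63 in PBS and 69.22 to 73.94 in HDM, so the groups overlapped. Chil3 was lowest in the arrays numbered 3 of both groups, with gaps of −1.09 and −1.10 to the mean of the others. That of the B cell markers was 35.16 to 37.89 in PBS and 34.05 to 41.13 in HDM, and 0 of 5 passed (0 at an unadjusted p below 0.05). Of 4 measured CD8 and gamma delta T cell markers, 0 passed (0 at an unadjusted p below 0.05). Levels of such markers were not all low. Cd8b1 lay between 8.90 and 9.59 on the 6 arrays, at percentile 82.4 of mean signal, and Cd8a at percentile 53.6. The macrophage markers ran from percentile 36.4 (Marco) to 96.7 (Lyz2). How far these cells enter the receptor signals was not tested. Without both arrays numbered 3 the difference of Klrd1 was −1.34 ± 0.10, of Klrg1 1.42 ± 0.10 and of Klrb1f 0.69 ± 0.09, each past the test.

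**Figure D4:**
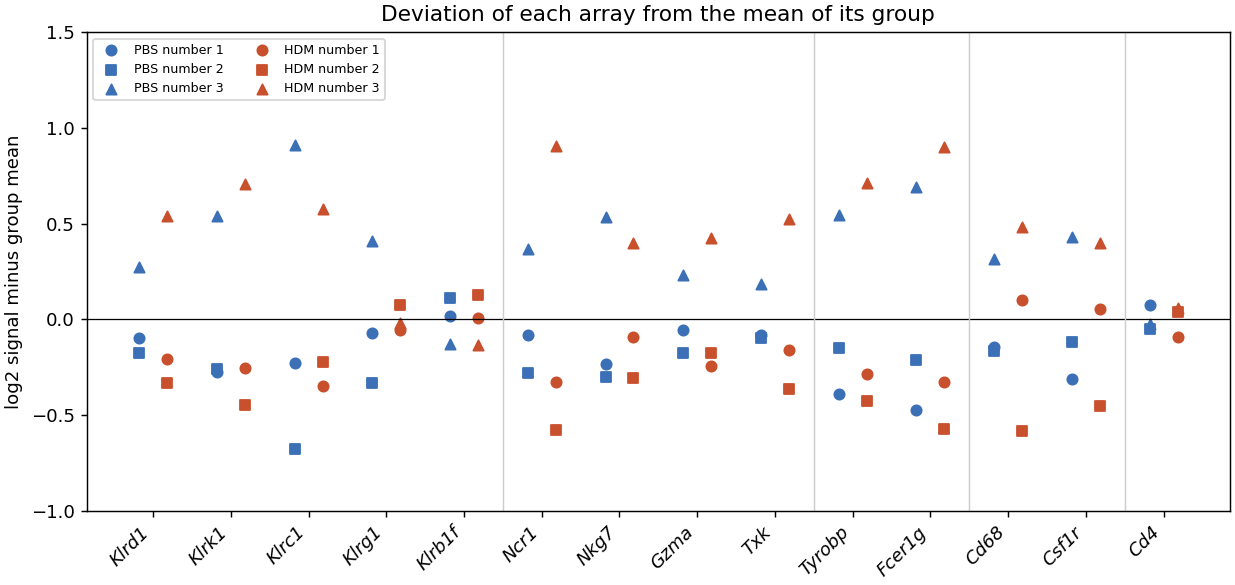
Log2 signal of each array minus the mean of its group for 5 members, NK and cytotoxic genes (Ncr1 to Txk), shared adaptors (Tyrobp and Fcer1g), macrophage markers (Cd68 and Csf1r) and Cd4; colours give the group and shapes the replicate number. Triangles, the arrays numbered 3, are the highest of both groups for Klrd1, Klrk1 and Klrc1 and for the NK, adaptor and macrophage genes drawn, and the lowest for Klrb1f.

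The genes whose pattern was most like each member were taken as those with the smallest root mean square difference between centred log2 values over the 6 arrays. Predicted genes, pseudogenes, small RNAs and antigen receptor segments, recognised by letters in their symbols, were left out. For Klrd1 the nearest were Txk (0.073), Plcxd2 (0.14) and Pvr (0.14). Txk, the kinase named above with the NK and cytotoxic genes, lay at percentile 98.2 of mean signal. Which cells gave its signal was not tested. For Klrg1 they were Morrbid (0.13), Capg (0.14) and Car5b (0.15), and for Klrb1f Cstb (0.013), Plcb4 (0.031) and Ndfip1 (0.043). For Klrk1 they were Mxd1 (0.071), Homer1 (0.10) and Fam71a (0.10), and for Klrc1 Abcb9 (0.17), Ly6a2 (0.21) and Hhip (0.22). Klre1, Klrc2 and Klrb1c lay below the 25th percentile of mean signal, so their nearest genes were not named.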

How the data were processed

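CD4+ T cells of the lung were measured on 6 arrays, 3 HDM and 3 PBS, grouped by the source names in the labels. The authors deposited 1 log2 signal per probe set and array, and RMA is the tool that the submitters' processing notes name, with no version. RMA equalises array distributions, which hides any change in the total RNA of a cell, and no detection call was given. Of 33960 probe sets, 23521 had exactly 1 gene symbol in the platform annotation, giving 22180 genes, with the brightest probe set where a gene had several. Differences (HDM minus PBS, two-sided) were tested with limma 3.58.1 in R 4.3.3 (lmFit, eBayes with an intensity trend), with Benjamini-Hochberg adjustment over all genes at 0.05. SEs use the moderated spread. The script was tested on simulated data.

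The members and gene lists were chosen with earlier results of these data known. The naming rule took the 8 members, 7 fixed genes, up to 4 passing genes per list with the largest change (the 2 largest where 0 passed) and the 3 genes most like each member. Arrays shared at most 5 identical values. Deviations of same-numbered arrays from group means correlated at 0.43, 0.17 and 0.53 for numbers 1, 2 and 3, each above the 0.1 set for treating numbers as pairs, though PBS 1 with HDM 2 reached 0.25, above the pair numbered 2. The pairing comes from the data, not the labels, so blocked counts or values are given beside the members and lists whose calls they change. Alternatives covered the filter on dim genes, normalization, variance model, array weights, probe sets, block and each array left out. Promoter sequences are RefSeq's, of GRCm38.p6. The authors' genome build was not given in the sources used here.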

Additional observations from a re-analysis of the deposited data

How the results depend on the processing

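Klrb1f, Klrg1 and Klrd1 kept their direction under all 17 alternatives run. Their groups did not overlap, so leaving out arrays could not have turned it, and kept direction is no test of robustness. The call was lost in 4 of the 17 for Klrb1f, 3 for Klrg1 and 6 for Klrd1. Across the arrays left out in turn Klrd1 ranged from −1.48 to −1.04, Klrg1 from 1.04 to 1.41 and Klrb1f from 0.63 to 0.76. Klrd1 did not pass with adjustment over all probe sets (−1.21, adjusted p = 0.0552). Klrc1 passed with the replicate block (−0.80) and, numbers 3 left out of both groups, at −0.63, and ranged from −1.14 to −0.34 without 1 array. Apart from Klrc1, the block changed the call of none of the 8 members. Klrc2, a dim gene, turned with array weights (0.043) and without both arrays numbered 3 (0.093), and ranged from −0.29 to 0.046 without 1 array. Klre1, Klrc2 and Klrb1c fell below both filters on dim genes and have no value there. Other genes that turned without 1 array were Ncr1 (−0.58 to 0.16), Eomes (−0.12 to 0.079), Tyrobp (−0.016 to 0.61), H2-T23 (−0.0078 to 0.071), Klri2 (−0.69 to 0.043), Homer1 (−0.57 to 0.016), Fam71a (−0.48 to 0.10) and Hhip (−0.74 to 0.0039), and 0 of these passed the test in limma.

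Of all 22180 genes, 876 were called. The count was 1837 with array weights, 543 with adjustment over all probe sets, 2653 with the block, 2576 without both arrays numbered 3 and 218 to 1567 without 1 array. NK and cytotoxic genes called were 9 with array weights, 2 over all probe sets, 13 with the block, 12 without both arrays numbered 3 and 1 to 8 without 1 array. Neighbouring lectin genes were 4 with the block, 4 without both arrays numbered 3 and 0 to 3 without 1 array. Ligands were 1 with averaged probe sets, 1 over all probe sets and 0 to 3 without 1 array. Signalling partners were 1 with median centring, 1 over all probe sets, 5 without both arrays numbered 3 and 0 to 3 without 1 array. Effector regulatory T cell genes were 15 with the block and 8 to 10 without 1 array. Transcription factors were 8 with the block and 2 to 6 without 1 array. The causes were not tested. Signal over background cannot be judged without detection calls.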
